A study of Mus musculus with 4 samples.

Results

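The genes described here encode the brakes of the G1 phase of the cell cycle, namely the cyclin-dependent kinase inhibitors Cdkn1a, Cdkn1b, Cdkn1c, Cdkn2a, Cdkn2b, Cdkn2c and Cdkn2d, and the retinoblastoma (pocket) protein genes Rb1, Rbl1 and Rbl2. The 10 genes were chosen by name, out of 21887 protein-coding genes in the RefSeq table. Their accessible regions were those sharing at least 1 base with the RefSeq bounds of a gene extended by 50 kb on either side. This gave 58 regions of 74777 in the deposited list. Of these, 3 lay in the windows of both Cdkn2a and Cdkn2b and were counted once. The farthest of them lay 49.3 kb from a gene's bound, and the nearest region left out lay 52.07 kb from Cdkn2b.

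The regions came from ATAC-seq, which tags DNA within reach of the transposase Tn5, of hair follicle stem cells. Cells from the back skin of female mice at postnatal day 30 were sorted as positive for H2BGFP, CD34 and CD49f and negative for Sca-1. The knockout carried K14-H2BGFP, K14Cre and Foxc1 fl/fl, and the control K14-H2BGFP and Foxc1 fl/fl without Cre, so both genotypes shared the reporter and the floxed alleles. The K14 (keratin 14) promoter, which drives the reporter and Cre, is active in basal cells of skin epithelium in general, so the deletion is not limited to the sorted cells. Each genotype was 1 library sequenced in 2 runs. A single list of mm10 coordinates covers all 4 runs, and gives each region neither a score nor a genotype. Knockout and control could therefore not be compared at these genes. The sequencing depth is unknown, and a gene without a peak cannot be told from one whose signal was too weak to be called. All values below describe this 1 list, with no replicate and no test.

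Cells that leave the cell cycle do so mostly in G1. Proteins of the CIP/KIP family (Cdkn1a, Cdkn1b and Cdkn1c) bind complexes of cyclins with their kinases, whereas INK4 proteins (Cdkn2a to Cdkn2d) bind the D-type cyclin kinases Cdk4 and Cdk6 alone. Both keep the pocket proteins unphosphorylated, and in that state Rb1, Rbl1 and Rbl2 hold E2F transcription factors and repress genes of DNA replication. Hair follicle stem cells rest for long periods between bouts of hair growth. Whether the cells sorted at postnatal day 30 were resting was not measured here.

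As a check of the sort, 11 of 12 marker genes of hair follicle stem cells and basal keratinocytes had a peak within 1 kb of either gene bound, among them Krt5, Krt14, Itga6, Cd34, Sox9 and Lhx2. The exception was Trp63. Its window, extended by 50 kb, held 16 peaks, a count not scaled to window length, but none within 1 kb of a bound. Of markers of other skin cells, 0 of 4 immune genes, 2 of 5 dermal fibroblast genes, 3 of 5 melanocyte genes and 2 of 4 endothelial genes had one. The same rule held for 57.6% of all protein-coding genes. By a peak on a transcription start, for the marker genes with an entry in the promoter table described next, the counts were 5 of 6 for the stem cell and keratinocyte genes, Krt14 being the exception, and 0 of 4 for immune genes. They were 1 of 4 for fibroblast, 2 of 4 for melanocyte and 2 of 2 for endothelial genes, so the endothelial genes were not set apart from the sorted type by this rule.

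Of the 10 genes, 8 had a peak within 1 kb of a bound, against that 57.6%. Cdkn1a and Cdkn1c had none. The RefSeq promoter table of GRCm38.p6, whose coordinates match mm10, gave the strand and transcription start for 8 of the genes, with no entry for Cdkn1c and Rb1. Each entry is a window from 250 bases before a start to 50 bases from the start on, called open here where a peak shared at least 1 base with it. The 8 genes had 11 windows, of which 8 were open, each covered over its whole length. At least 1 window was open in 7 of the 8 genes, against 55.0% of 17492 protein-coding genes with an entry. Of all 21263 windows of protein-coding genes, 53.2% were open. The exception among the 8 genes was Rbl1. Cdkn1a, with no peak at its bounds, had an open start inside the gene.

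**Figure D1:**
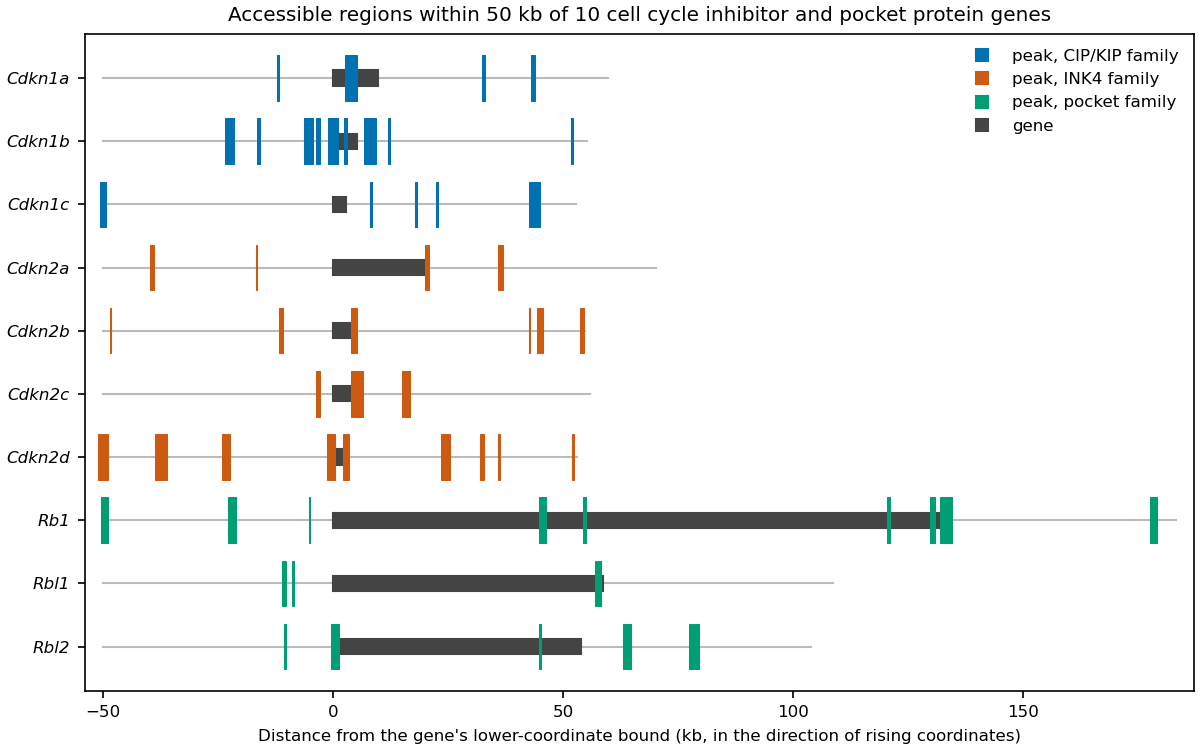
Accessible regions (coloured bars) within 50 kb of the 10 genes (dark boxes), one gene per line, against the distance in kb from the lower-coordinate bound. Bars of the narrowest peaks are widened slightly by their outline. Cdkn1b has 7 peaks within 10 kb of its bounds, Cdkn1c has no peak on the gene, and the 5 peaks on Rb1 leave most of the gene without one.

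Cdkn1a encodes p21, the inhibitor induced by p53. The gene lies on chromosome 17 from 29090979 to 29100722, on the plus strand, with starts at 29090979 and 29093769, 2790 bp apart. The first, upstream start had no peak, and the nearest peak began 2433 bp beyond its window. The second start lay in a peak of 2638 bp, from 29093461 to 29096098, which reached 308 bp upstream and 2329 bp downstream of it. That was the widest of the 58 peaks and wider than 98.2% of the whole list. The 250 bases before each start are shown because the pair differed in accessibility. Capitals mark matches to the GC box (GGGCGG) and to the p53 half-site.

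Cdkn1a, first start (chr17:29090729-29090978, plus strand): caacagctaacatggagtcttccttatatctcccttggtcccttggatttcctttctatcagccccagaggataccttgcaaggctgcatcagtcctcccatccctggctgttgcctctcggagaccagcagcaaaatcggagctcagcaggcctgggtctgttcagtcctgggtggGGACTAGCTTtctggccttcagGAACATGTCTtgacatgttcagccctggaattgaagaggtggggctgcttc

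Cdkn1a, second start (chr17:29093519-29093768, plus strand): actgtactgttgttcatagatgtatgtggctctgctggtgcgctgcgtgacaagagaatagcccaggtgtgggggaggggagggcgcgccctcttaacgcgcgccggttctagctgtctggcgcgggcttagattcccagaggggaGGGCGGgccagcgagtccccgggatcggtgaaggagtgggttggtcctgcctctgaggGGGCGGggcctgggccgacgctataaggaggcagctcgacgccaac

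The window of the first start held 2 CpG dinucleotides and no GC box, and that of the second held 23 CpG and 2 GC boxes. The window without a peak held 2 matches to the p53 half-site, beginning 73 and 51 bases before the first start, or 2863 and 2841 bases before the second. A half-site match was present in 7.37% of all promoter windows. Such a match is a match of letters only.

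Elsewhere in the window of Cdkn1a, 3 narrower peaks were listed. A peak of 582 bp lay 11.7 kb upstream, at the upper bound of Trp53cor1, a long non-coding RNA gene of the p53 response. The remaining peaks, of 593 and 688 bp, lay 22.7 and 33.4 kb downstream inside Rab44, a gene of the RAB GTPase family. The window held 3.645 peaks per 100 kb, near the median of 3.788 for all protein-coding genes.

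Cdkn1b encodes p27, an inhibitor that accumulates in resting cells, and had the densest peaks of the 10 genes. It lies on chromosome 6 from 134920401 to 134925525, on the plus strand. Its start lay in a peak of 2105 bp (134919351 to 134921455) that reached 1050 bp upstream and 1054 bp downstream. Within 10 kb of the gene there were 7 peaks, which together covered 8.08 kb of an 18.7 kb stretch. That was more than in 91.0% of protein-coding genes, whose median was 2. Upstream peaks of 867 and 1911 bp ended 2.8 and 4.4 kb before the gene, and a peak of 584 bp lay inside it. Downstream, a peak of 561 bp lay 1.6 kb beyond the gene, and one of 1547 bp began 2.6 kb beyond it on the start of Lockd, a long non-coding RNA gene next to Cdkn1b. A further peak of 501 bp lay inside Lockd. The 50 kb window held 10 peaks in all, or 9.512 per 100 kb, a higher density than that of 92.7% of protein-coding genes, and 10.65% of it was covered. Farther upstream, a peak of 2113 bp covered the starts of Gpr19, a receptor gene, and of 2810454H06Rik.

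Cdkn1c encodes p57 and is imprinted, being transcribed from the maternal copy. It lies on chromosome 7 from 143458339 to 143461059 and was the only one of the 10 genes with no peak on the gene itself, a state shared by 33.0% of protein-coding genes. The nearest peak, of 367 bp, lay 5.3 kb above the upper bound on the start of Gm33663, a long non-coding RNA gene. No peak lay below the gene until 49.3 kb, where a peak of 1289 bp lay inside the potassium channel gene Kcnq1. The widest peak of the window, 2319 bp, covered Phlda2 at a distance of 39.9 kb. Phlda2 is another imprinted gene of the same chromosomal domain. Peaks of 474 and 439 bp lay inside Slc22a18. Coordinates alone do not tell the parental copies apart.

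The INK4 genes Cdkn2a and Cdkn2b lie side by side on chromosome 4, both on the minus strand, and their upstream starts are 16.4 kb apart. Cdkn2a (89274473 to 89294619) has an unusual layout, with separate starts for p19ARF, which acts on the p53 pathway, and for p16INK4a, which inhibits the cyclin D kinases. The upstream start, at 89294619, is by the known layout of the gene that of the ARF transcript, and lay in a peak of 769 bp (89294545 to 89295313). This peak reached 694 bp upstream and only 74 bp into the gene, and also covered the start of the long non-coding RNA gene Gm12610, whose bound lies 560 bp away. The downstream start, at 89282192, is that of p16INK4a and had no peak. The nearest peak lay 12.1 kb from its window, and the peak-free ground around it measured 36.5 kb. The bases before both starts of Cdkn2a are shown because one was open and the other was not. Capitals mark the E2F motif TTTCCCGC and the GC box.

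Cdkn2a, upstream start (chr4:89294620-89294869, minus strand): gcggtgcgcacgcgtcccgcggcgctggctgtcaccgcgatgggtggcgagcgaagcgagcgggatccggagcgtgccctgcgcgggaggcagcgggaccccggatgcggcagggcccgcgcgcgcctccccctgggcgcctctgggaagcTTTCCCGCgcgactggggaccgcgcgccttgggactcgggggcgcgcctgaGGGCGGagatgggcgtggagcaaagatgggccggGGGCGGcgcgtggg

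Cdkn2a, downstream start (chr4:89282193-89282442, minus strand): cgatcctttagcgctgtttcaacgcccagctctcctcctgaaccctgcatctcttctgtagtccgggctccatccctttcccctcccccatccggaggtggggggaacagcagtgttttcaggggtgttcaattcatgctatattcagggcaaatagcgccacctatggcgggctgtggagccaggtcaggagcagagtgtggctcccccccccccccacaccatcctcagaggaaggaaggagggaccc

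The upstream window held 45 CpG dinucleotides, more than 97.5% of all windows, and a GC content of 77.0%. Its E2F match began 99 bases before the start, and it was the only match to TTTCCCGC among the 11 windows. The downstream window held 12 CpG and had a GC content of 60.3%, with no match of the listed motifs before the start.

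**Figure D2:**
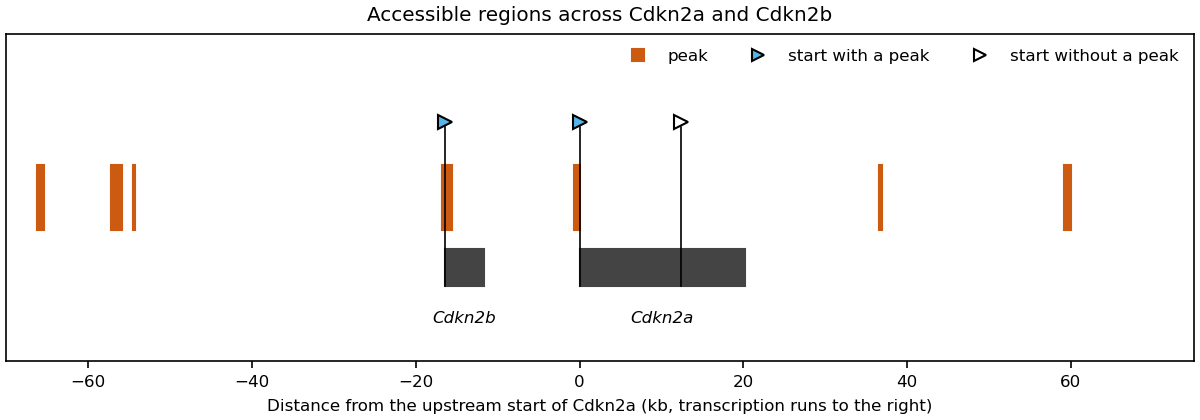
Accessible regions (orange), genes (dark boxes) and transcription starts (arrowheads, filled where a peak covers the start) across Cdkn2a and Cdkn2b, against the distance in kb from the upstream start of Cdkn2a, with transcription running to the right. The starts of Cdkn2b and the upstream start of Cdkn2a are covered, and a stretch of 36.5 kb without a peak follows the latter.

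Cdkn2b (89306289 to 89311032) encodes p15, an INK4 inhibitor induced by TGF-beta. Its start lay in a peak of 1190 bp (89310223 to 89311412), with 380 bp upstream and 809 bp inside the gene. The other 6 peaks of its window were narrower. Of these, 4 peaks of 265 to 857 bp lay between 37.9 and 49.0 kb upstream, inside Gm12610, and no peak lay between them and the start of Cdkn2b. Downstream lay the peak of 769 bp on the upstream start of Cdkn2a and a peak of 301 bp at 48.3 kb. The window of Cdkn2b was covered to 4.328% and that of Cdkn2a to 2.564%, on either side of the median of 3.161% for all protein-coding genes.

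Cdkn2c encodes p18INK4c and lies on chromosome 4 from 109660876 to 109666756, on the minus strand, far from the other INK4 pair. Its starts, 1384 bp apart, lay under 1 peak of 2519 bp (109664856 to 109667374), wider than 97.8% of the list. The sequences before the starts are shown because a single peak covered windows of very different composition. The upstream window held 33 CpG and a GC content of 73.3%, the downstream window 8 CpG and 44.0%.

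Cdkn2c, upstream start (chr4:109666757-109667006, minus strand): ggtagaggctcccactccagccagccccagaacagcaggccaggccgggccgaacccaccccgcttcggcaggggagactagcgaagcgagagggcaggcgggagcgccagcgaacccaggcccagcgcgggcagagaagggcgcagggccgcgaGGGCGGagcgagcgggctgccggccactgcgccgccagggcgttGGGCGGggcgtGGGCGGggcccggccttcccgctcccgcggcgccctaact

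Cdkn2c, downstream start (chr4:109665373-109665622, minus strand): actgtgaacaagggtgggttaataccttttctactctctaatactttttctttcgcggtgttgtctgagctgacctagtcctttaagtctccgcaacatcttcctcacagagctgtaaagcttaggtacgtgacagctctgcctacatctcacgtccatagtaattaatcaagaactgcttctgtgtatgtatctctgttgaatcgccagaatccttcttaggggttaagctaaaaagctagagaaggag

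The upstream sequence has 3 GC boxes in capitals, and the downstream sequence has no match of the listed motifs. Cdkn2c had 3 peaks in its window, the fewest of the 10 genes, and 0 distal peaks, meaning peaks whose midpoint lies over 1 kb from the bounds of every annotated gene. Its other peaks lay at starts of neighbours. One of 780 bp covered the start of the non-coding gene 9630013D21Rik, 2.9 kb downstream, and one of 1797 bp covered that of the apoptosis-related gene Faf1, 9.0 kb upstream. The covered share, 4.813%, still lay above that of 67.7% of protein-coding genes, since the peaks were wide.

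Cdkn2d encodes p19INK4d, a protein distinct from the ARF product of Cdkn2a. It lies on chromosome 9 from 21288459 to 21291421 and was the only member with a peak at both bounds, as in 8.14% of protein-coding genes. The peak on its start, 1424 bp from 21290579 to 21292002, reached 793 bp upstream. The peak at the other bound, 1663 bp from 21287159 to 21288821, covered the start of the neighbouring gene Kri1, whose bound lies 489 bp away. The window held 9 peaks and was covered to 11.79%, the highest share of the 10 genes and above that of 95.7% of protein-coding genes. Many of these peaks lay at other genes, covering starts of Keap1, Atg4d, Ap1m2 and Slc44a2. The widest, 2558 bp, lay 36.1 kb downstream between genes. Keap1 encodes a regulator of the oxidative stress response and Atg4d an autophagy protease.

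**Figure D3:**
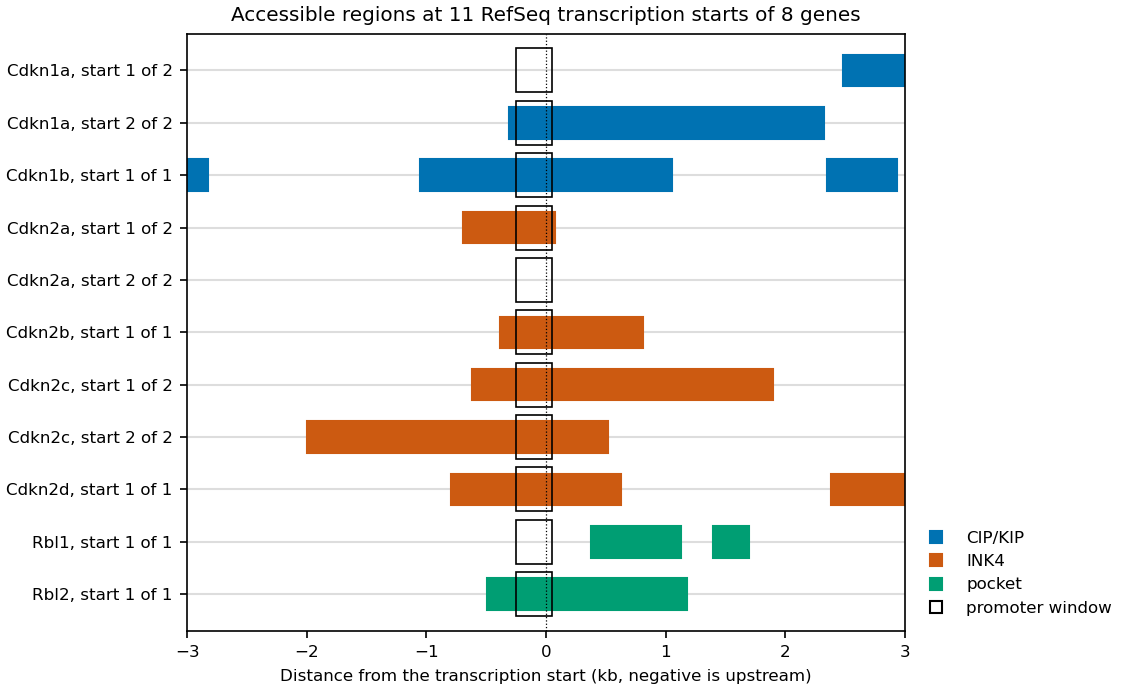
Peaks (coloured bars) around the 11 transcription starts of 8 genes, against the distance in kb from each start, with negative values upstream; black frames mark the promoter window. Peaks cover 8 frames whole, and the frames without a peak are the first start of Cdkn1a, the second start of Cdkn2a and the start of Rbl1.

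Rb1, the founding pocket protein gene and a tumour suppressor, lies on chromosome 14 from 73192858 to 73325951. A peak of 2564 bp (73324701 to 73327264) covered its upper bound and was wider than 98.0% of the list. It was followed inside the gene by peaks of 1191 and 824 bp. Nearer the other bound lay peaks of 730 and 1420 bp. The wider of these covered the start of Lpar6, a lysophosphatidic acid receptor gene that lies within Rb1. A stretch of 65.3 kb between the peaks of 730 and 824 bp had none. The window of 233.1 kb held 9 peaks, or 3.861 per 100 kb. Outside the gene, the nearest peak was one of 232 bp lying 5.1 kb below the lower bound, the narrowest of the 58.

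Rbl1 encodes p107, the pocket protein most abundant in cycling cells, and had the sparsest peaks. It lies on chromosome 2 from 157145893 to 157204534, on the minus strand. Its start window held no peak. The nearest, of 756 bp (157203406 to 157204161), ended 373 bp inside the gene, and a second of 303 bp followed it. The sequence before the start is shown because this window had no peak, whereas that of Rbl2 had one. The window held 29 CpG and had a GC content of 64.0%. The capitals mark a GC box on the opposite strand.

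Rbl1 (chr2:157204535-157204784, minus strand): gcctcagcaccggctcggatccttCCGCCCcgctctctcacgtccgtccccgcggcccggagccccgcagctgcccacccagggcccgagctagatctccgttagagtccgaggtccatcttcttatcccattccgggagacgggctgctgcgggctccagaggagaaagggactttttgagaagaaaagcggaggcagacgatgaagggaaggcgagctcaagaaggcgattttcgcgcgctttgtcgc

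The window of Rbl1 held 4 peaks, or 2.521 per 100 kb, and 1.469% of it was covered. Both values were the lowest of the 10 genes, and 28.5% of protein-coding genes had a lower covered share. The remaining peaks lay below the gene, one of 855 bp on the start of Samhd1, which encodes an enzyme that degrades deoxynucleotides, and one of 417 bp nearby.

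Rbl2 encodes p130, the pocket protein most associated with resting cells, where it joins E2F and the DREAM complex on cell cycle genes. It lies on chromosome 8 from 91070057 to 91123844. Its start lay in a peak of 1672 bp (91069563 to 91071234), with 494 bp upstream and 1177 bp inside the gene. The rest of the gene held a peak of 377 bp, in the 12.1 kb that Rbl2 shares with the neighbouring gene Aktip. A peak of 1709 bp covered the start of Aktip, 9.3 kb beyond Rbl2, and peaks of 921 and 995 bp lay 23.5 and 24.6 kb beyond it. Over all open promoter windows the median peak width was 1372 bp, below that of the peak on the start of Rbl2.

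The 3 genes with several starts differed in pattern. Cdkn2c was open at both starts, Cdkn2a at the upstream start only and Cdkn1a at the downstream start only. Of 1500 protein-coding genes with starts at least 1 kb apart, 50.2% were open at some starts but not all. Of the 962 with exactly 2 such starts, 20.5% were open at both, 32.5% at the upstream start only, 14.4% at the downstream start only and 32.5% at neither.

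Open windows held more CpG over the whole genome. Over all windows the median was 22 CpG where a peak was present and 4 where it was not. At these genes the open windows held 8 to 45 CpG and the others 2, 12 and 29. A peak lay on 8.52% of windows with 0 to 4 CpG, the range of the first start of Cdkn1a. It lay on 33.0% of those with 5 to 9, the range of the downstream start of Cdkn2c, which was open. Of windows with 10 to 19 CpG 73.1% were open, and the downstream start of Cdkn2a, with 12, was not, whereas those of Cdkn2b with 18 and Rbl2 with 14 were. Of windows with 20 to 29 CpG 86.3% were open, and Rbl1, with 29, was not. CpG content is a description of the windows and its part in accessibility was not tested.

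**Figure D4:**
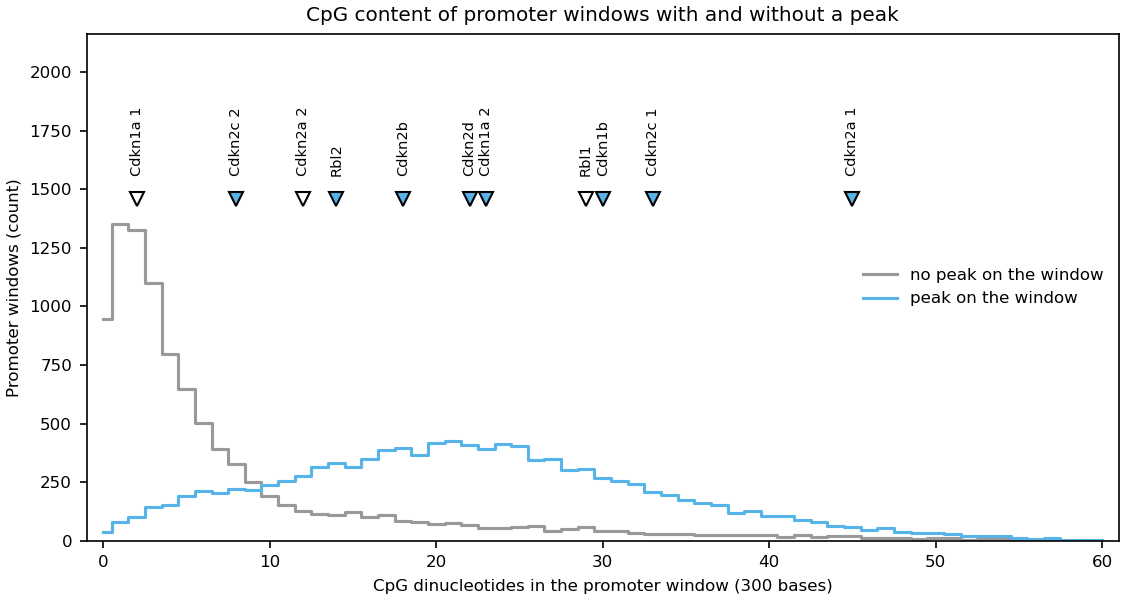
Number of promoter windows of protein-coding genes (vertical axis) by CpG count in 300 bases (horizontal axis), with a peak (blue) and without (grey); triangles mark the 11 windows of the 8 genes, filled where a peak is present, and numbers after a name give the start. The empty triangles are the first start of Cdkn1a at 2 CpG, the second start of Cdkn2a at 12 and Rbl1 at 29. Windows with over 60 CpG (14) are not drawn.

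Searched on both strands, the GC box GGGCGG was found in 9 of the 11 windows, against 46.2% of all windows and 67.4% of the open ones. The windows without it were the first start of Cdkn1a and the second start of Cdkn2c. The core of the cell cycle homology region, TTTGAA, bound by the repressive DREAM complex of Rbl1 or Rbl2, was found at Cdkn2b and Rbl2, against 16.0% of all windows. The E2F motif TTTCCCGC was present in 1.41% of all windows, and its variant TTTGGCGC in 0 of the 11 and 0.635% of all. Other forms of the E2F motif were not searched, so windows without these letters may still hold one. CCAAT was found in 4 of the 11 (38.2% of all), and CAGGTG at the second start of Cdkn1a (19.7%). None of the 11 held the TATA box TATAAA (12.6% of all), the forkhead motif TGTTTAC (3.01%) or the AP-1 motif TGACTCA (4.66%). The p53 half-site was found at Cdkn2d as well as Cdkn1a, and at Cdkn2d it overlapped a GC box.

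Around the genes, the 58 peaks had a median width of 856 bp, against 587 bp for the list, and 40 of them (69.0%) were wider than that. The sets are unlike, since the list holds peaks at any distance from genes. Promoter windows of any gene held 23 of the 58, and peaks on all open promoter windows had a median of 1372 bp. Of the 58, 10 lay at a bound or start of one of the genes, 6 inside one of them, 15 at a bound of another gene, 15 inside another gene and 12 between genes. Those at the genes' own bounds or starts had a median width of 1667.5 bp and those at bounds of other genes 1547 bp. The medians were 657 bp inside the genes, 593 bp inside other genes and 705 bp between genes. Distal peaks numbered 35. They are set by distance to gene bounds alone, so they include peaks on promoter windows, namely the second start of Cdkn1a, Aktip and Rcbtb2. The distal count per gene had a median of 3, the same as over all protein-coding genes. The count of all peaks per gene had a median of 5.5, against 5 for all protein-coding genes, and 6 of the 10 genes had a density above the median of all. Coverage was above the median of all in 8 of the 10. By family, density ranged from 3.645 to 9.512 peaks per 100 kb for CIP/KIP, from 2.833 to 8.741 for INK4 and from 2.521 to 3.901 for the pocket protein genes. The ranges of the families overlap. Peaks near a gene may belong to a neighbour, and the list holds no information to assign them.

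**Figure D5:**
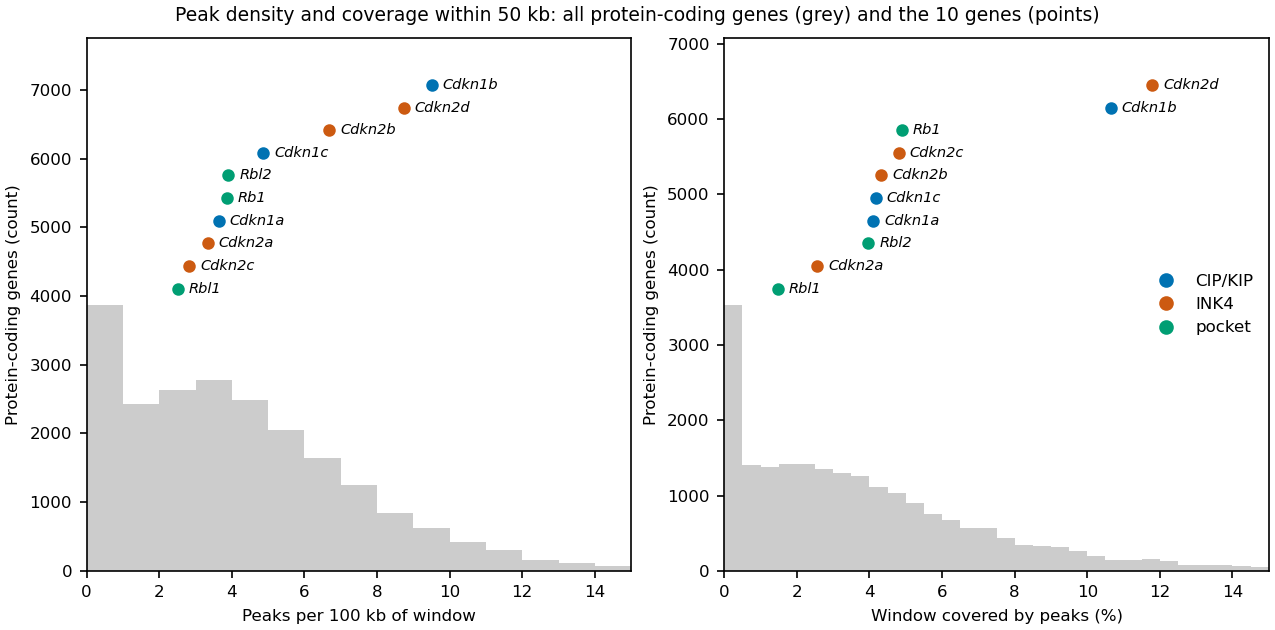
Histograms of peaks per 100 kb (left) and percent of ground covered by peaks (right) in the windows of 21887 protein-coding genes (grey bars, counted on the vertical axis), with the 10 genes as points coloured by family; the height of a point only separates the names. Cdkn1b and Cdkn2d lie to the right in both panels and Rbl1 lies farthest left of the 10. Genes at 15 or above, 175 in the left panel and 393 in the right, are not drawn.

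Of 30 other genes of the G1 pathway (E2F factors and their dimer partners, DREAM subunits, cyclins, kinases and regulators), 28 had a peak within 1 kb of a bound, against 57.6% of all protein-coding genes, the exceptions being Ccnd1 and Skp2. Of 23 with a promoter entry, 22 had an open start, against 55.0% of all with an entry. Skp2 was among them, and the exception was Tfdp2. The genes for the kinases that INK4 proteins bind, Cdk4 and Cdk6, each had peaks at both bounds, with 14 and 22 peaks in their windows. These counts are not scaled to window length. Peaks at both bounds were also present at E2f4, Cdc25a and Mdm2 of the 30, and at 8.14% of all protein-coding genes. Trp53, whose product induces Cdkn1a, had an open start and 3 peaks, and Mdm2, the gene of its inhibitor, had 11. The median over the 30 was 7 peaks per window, against 5 over all protein-coding genes. These lists differ in gene length and neighbours, so their counts are not compared further.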

How the data were processed

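ATAC-seq of hair follicle stem cells of 2 genotypes (2 libraries, 4 runs) was deposited as 1 list of regions, whose columns are coordinates with no other value, as deposited by the authors. Per the submitters' processing notes, the tools were Bowtie2, MACS2 and bedtools on build mm10. Not given in the sources used here are versions, settings, read filters, any Tn5 offset and whether regions were called on pooled reads. Width is the only property of a peak in the list. Its relation to signal was not tested, and depth is unknown.

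Starts were converted to positions counted from 1. Gene bounds and promoter windows came from RefSeq tables of GRCm38.p6, and all 10 genes were matched by symbol, 8 of them with promoter entries. Overlap was at least 1 base. Intervals were counted with Python 3.11.15, pandas 2.3.3 and numpy 2.4.6, and the counting was tested on simulated data. Exons and introns were not used here. Backgrounds are all protein-coding genes off the mitochondrial chromosome under the same rule. The members, lists and motifs were chosen with earlier results of these data known. Named were all 10 genes, their end, start, widest and nearest peaks, and neighbours whose bounds hold a peak. The 10 kb count and the patterns of several starts were added after the data had been seen. Alternatives changed the window, the overlap rule and the smallest width for the chosen genes only, and backgrounds were kept at the reported rules.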

Additional observations from a re-analysis of the deposited data

How the results depend on the processing

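The number of genes with a peak at a bound was 8 with 500 bp windows, by midpoint, or with peaks at or above the median width only, and 9 with 2500 bp, where the peak on the second start of Cdkn1a was reached. The 7 genes with an open start stayed 7 when the peak had to cover the whole window and with wide peaks only. The shares over all protein-coding genes were not recomputed under these settings. Whether the contrast with those shares holds under them was therefore not tested. The count of peaks around the genes depends on the extension by construction, being 35 with 20 kb and 113 with 100 kb, and distal peaks numbered 18 and 78. Coverage of the joined windows was 5.17%, and ranged from 4.54% to 5.54% over its alternatives. Widths and counts rest on a peak list without scores, so a stricter threshold could not be applied. No paired analysis was possible because the list holds no value per library.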
